A study of Mus musculus with 9 samples.

Results

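Interferon-stimulated genes were followed in regulatory T cells (Tregs), the CD4 T cells that express Foxp3 and restrain immune responses. The set held 43 genes, picked by symbol as well-known targets of interferons. Of these, 31 were targets of type I interferon, 10 were GTPases of the interferon-gamma response, and 2, Irf1 and Tap1, answer to both. A deposited row was matched for 39 of the 43 (27, 10 and 2 of the classes), out of 21023 named genes on the array; Mx1, Mx2, Rsad2 and Trim30a were not analysed here.

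In every group the mice were Foxp3EGFP reporters on the C57BL/6 background, 8 to 12 weeks old, and the cells were sorted as CD4+ GFP+ after Percoll enrichment. Control lung stands for Tregs of uninjured lungs. Resolving lung and resolving spleen stand for Tregs of the lung and the spleen after lung injury by Escherichia coli lipopolysaccharide (LPS O55:B5, 3 mg/kg into the trachea). There were 3 Affymetrix arrays per group and no spleen sample from uninjured mice, so tissue and injury cannot be told apart in the comparison of control lung with spleen. Spleen replicates 2 and 3 share 1 description in the labels; their titles number them separately, and their values differ. Neither the time of harvest nor the number of mice behind an array is given in the sources used here. From the labels it is not known whether replicates were separate animals; the p-values therefore reflect array-to-array spread, part or all of which may be technical. In such bulk samples, fewer cells expressing a gene and less RNA of it per cell cannot be told apart.

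Type I interferons (the interferon-alpha family and interferon-beta) bind the receptor Ifnar1-Ifnar2 and activate a complex that holds Stat2 and Irf9 and binds the interferon-stimulated response element (ISRE) and turns on antiviral genes. Interferon-gamma, made by T cells and natural killer cells, binds Ifngr1-Ifngr2 and acts through the gamma-activated site (GAS). It induces Irf1 and the guanylate-binding proteins (GBPs) and immunity-related GTPases (IRGs), which attack the vacuoles of intracellular microbes. The responses overlap, and many of the genes below answer to both interferons to some degree.

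Promoter windows from RefSeq (GRCm38.p6), running from 250 bases before to 50 bases after the annotated start, were found for 32 of the 43 genes. The ISRE core was searched on both strands as GAAA, NN (any bases) and GAAA in a row. It was present in at least 1 window of 19 of these 32 genes (59.4%), against 3.99% of all 27025 genes with a window. It was present in 12 of 22 type I targets (54.5%), in 7 of 8 GTPases (87.5%) and in neither Irf1 nor Tap1. The GAS core, TTCNNNGAA, reads the same on both strands. It was present in 11 of 32 genes (34.4%), against 9.55% of all genes with a window, and in 6 of 22 type I targets and 4 of 8 GTPases. By these letters the classes were therefore not separated: the GTPase windows held the ISRE core too. The 180 bases before the start are shown for 3 type I targets (Ifit1, Isg15 and Oas1a) and for 5 GTPases (Gbp3, Gbp5 and Gbp7, which are neighbours in 1 cluster, and Igtp and Irgm1), because the contrast between these classes carries the results below. Capitals mark the ISRE core and overlapping copies of it.
Ifit1, chr19:34640709-34640888, plus strand: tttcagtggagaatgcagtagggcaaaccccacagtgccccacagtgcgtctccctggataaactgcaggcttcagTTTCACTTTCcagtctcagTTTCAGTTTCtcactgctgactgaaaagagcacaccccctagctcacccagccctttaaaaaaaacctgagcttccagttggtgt
Isg15, chr4:156200819-156200998, minus strand: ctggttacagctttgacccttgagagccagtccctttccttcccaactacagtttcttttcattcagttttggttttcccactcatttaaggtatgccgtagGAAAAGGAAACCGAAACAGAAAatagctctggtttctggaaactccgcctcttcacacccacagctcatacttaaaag
Oas1a, chr5:120907526-120907705, minus strand: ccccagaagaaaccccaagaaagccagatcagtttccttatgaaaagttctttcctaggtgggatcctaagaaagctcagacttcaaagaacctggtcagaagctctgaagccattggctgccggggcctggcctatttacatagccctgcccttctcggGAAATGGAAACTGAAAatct
Gbp3, chr3:142559864-142560043, plus strand: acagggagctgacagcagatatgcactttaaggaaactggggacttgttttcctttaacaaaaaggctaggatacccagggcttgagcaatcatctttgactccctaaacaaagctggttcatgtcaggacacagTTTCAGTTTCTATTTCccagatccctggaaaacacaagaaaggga
Gbp5, chr3:142496754-142496933, plus strand: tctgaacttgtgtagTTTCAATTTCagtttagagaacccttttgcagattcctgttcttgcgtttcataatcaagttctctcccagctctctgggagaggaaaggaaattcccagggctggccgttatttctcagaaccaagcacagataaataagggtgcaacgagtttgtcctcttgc
Gbp7, chr3:142530156-142530335, plus strand: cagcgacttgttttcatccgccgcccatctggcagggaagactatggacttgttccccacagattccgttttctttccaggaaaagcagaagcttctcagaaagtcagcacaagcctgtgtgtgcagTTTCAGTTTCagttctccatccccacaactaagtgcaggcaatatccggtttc
Igtp, chr11:58199376-58199555, plus strand: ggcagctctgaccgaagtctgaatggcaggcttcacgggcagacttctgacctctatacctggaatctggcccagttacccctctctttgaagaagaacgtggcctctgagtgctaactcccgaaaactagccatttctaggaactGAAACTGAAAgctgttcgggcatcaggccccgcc
Irgm1, chr11:48871421-48871600, minus strand: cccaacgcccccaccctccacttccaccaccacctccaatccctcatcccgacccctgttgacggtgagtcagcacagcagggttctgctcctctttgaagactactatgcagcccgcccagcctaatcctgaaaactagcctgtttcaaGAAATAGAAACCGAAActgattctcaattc
In Isg15, Oas1a, Gbp3 and Irgm1 the copies overlap, and in the other 4 no copy overlaps another. In Ddx58, Ifih1 and Eif2ak2 the match lay after the start, at bases 3, 33 and 19. Ifit2 and Ifi47 held no ISRE core in the window. A match is a description of letters and not a binding site.

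**Figure D1:**
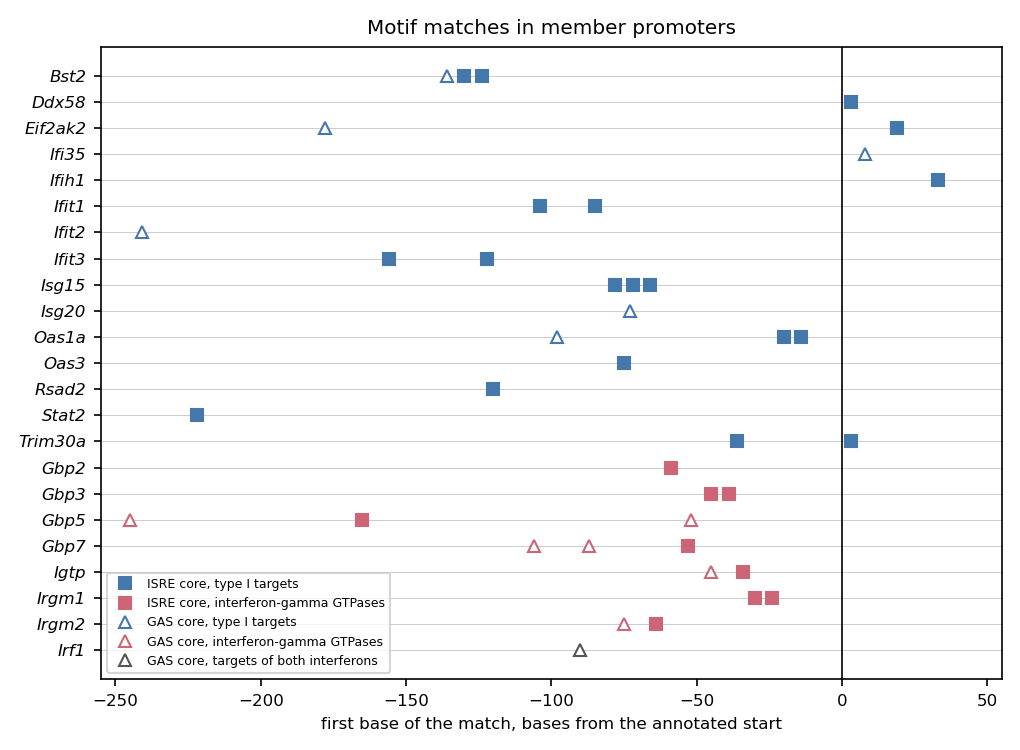
Position of the first base of each motif match relative to the annotated start, in bases, for members with a match; squares are ISRE cores, open triangles GAS cores, and colours the classes. Matches of the GTPases other than Gbp5 lie within 106 bases upstream of the start, while those of the type I targets spread over the whole window and, for 5 genes, past the start.

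Each array gave a log2 level per gene. A dim level was set at the 95th percentile of the 905 measured olfactory receptors, whose genes T cells are not known to express, and lay between 3.33 and 3.52; 38 of the 39 members lay above it in all 9 arrays, and Ifit3 in 6. Foxp3 (10.43 to 10.75) and the other T cell and Treg markers were strong in every array, and their mean level was 10.56 to 10.75. Markers of other cells were not absent. The mean log2 level of 9 B cell markers was 5.17 to 5.32 in control lung, 4.51 to 4.73 in resolving lung and 5.78 to 7.03 in spleen. Of 17 macrophage markers 14 were measured, and their mean was 6.87 in resolving lung array 1 and 5.21 in control lung array 1, against 3.96 to 4.60 in the other lung arrays; their summed linear level was 343 to 1187 in control lung, 642 to 3506 in resolving lung and 562 to 1217 in spleen. Lung epithelial markers were highest in control lung (mean 5.82 to 6.88), at 4.51 to 5.18 in resolving lung and lowest in spleen (3.08 to 3.73). Of 8 dendritic cell markers, Siglech, Flt3, Xcr1, Clec9a and Zbtb46 lay at or below the dim level in all 9 arrays, Cd209a and Klk1 in 8, and Ccr9 was above it in all 9 (4.17 to 4.83). Resolving lung array 1 stood apart, with a mean correlation of 0.966 with its group against 0.976 to 0.990 for the other arrays, and class medians, calls and the GTPase differences between the lung groups that it moved by over 1.5 times are given without it as well.

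The classes followed different orders of the groups. Averaged over 27 genes, type I targets had a mean log2 level of 6.54, 6.52 and 6.49 in the control lung arrays, 6.39, 6.49 and 6.46 in the resolving lung arrays and 6.70, 6.73 and 6.70 in the spleen arrays. Spleen lay above every lung array and the lung groups overlapped. Averaged over 10 genes, GTPases had a mean log2 level of 7.17, 7.24 and 7.12 in control lung, 7.83, 7.58 and 7.43 in resolving lung and 7.55, 7.40 and 7.63 in spleen. Here control lung was below all 6 arrays of injured mice, and resolving lung and spleen overlapped. The gap between the class means (GTPases minus type I targets) was 0.63, 0.72 and 0.63 in control lung, 1.44, 1.09 and 0.97 in resolving lung and 0.85, 0.67 and 0.94 in spleen, so the 3 resolving lung arrays had the widest gaps. The spread between replicates, pooled over the groups, was 0.036 for the type I mean and 0.14 for the GTPase mean. Spleen had the highest group mean for 18 of 27 type I targets, resolving lung had the lowest for 16 of 27, and control lung had the lowest for 8 of 10 GTPases. The order of the 3 groups was not counted over all genes. Of the 8932 genes above the dim level in all 9 arrays, 56.0% had lower fitted values in resolving lung than in spleen. In control lung 60.0% were lower than in spleen, and 55.7% were higher in resolving than in control lung.

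**Figure D2:**
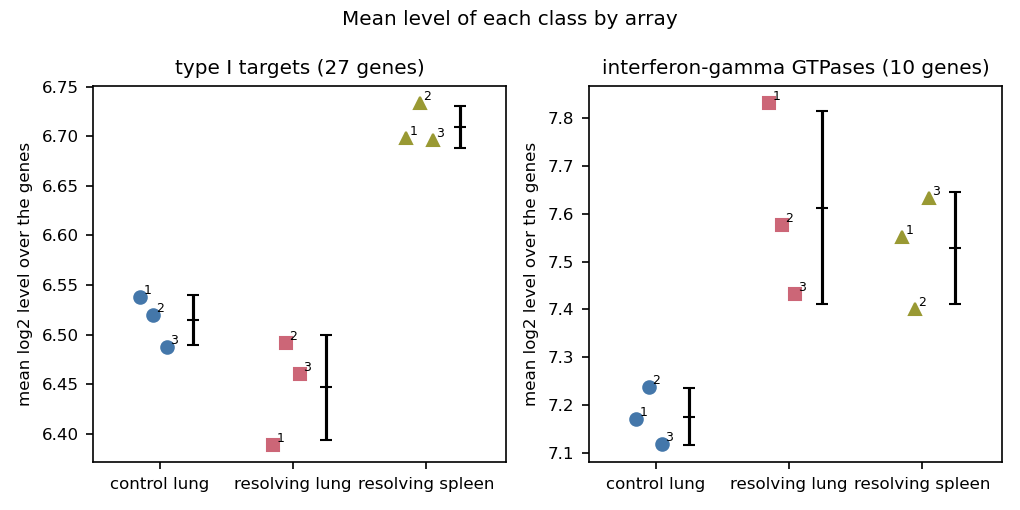
Mean log2 level over the genes of each class (vertical axes, which differ and do not start at 0) in each array, numbered by replicate, for type I targets and GTPases, with the mean ± SD of the 3 arrays at the right of each group. The spleen arrays lie above all lung arrays for type I targets (6.70 to 6.73), and the control lung arrays lie below the other groups for GTPases (7.12 to 7.24).

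The first comparison, resolving lung against control lung, asks how Tregs of the injured lung differed from those of the uninjured lung. GTPases were mostly higher in resolving lung: 9 of 10 had a higher fitted value, 8 of them at an unadjusted p under 0.05, and the median log2 difference was 0.45, against 0.0086 over all named genes. In 9 of 10 every resolving lung array was above every control lung array, a pattern that 8.79% of all genes showed. Among the 8932 genes above the dim level in all 9 arrays, as all 10 GTPases were, 1365 showed it and 1081 the reverse. The median of those 8932 genes was 0.034, and 55.7% had higher fitted values. At an unadjusted p under 0.05 in limma, 1599 of all 21023 genes were higher and 1344 lower, and of the 8932 genes 1296 and 1026. Only Ifi47 passed an adjusted p of 0.05 in limma, in a comparison in which 0.133% of all genes passed as higher and 0.323% as lower. Type I targets had no such shift, with 11 higher and 16 lower fitted values, a median of -0.087, 5 whose resolving lung arrays were all below control lung (as in 7.5% of all genes), 4 whose arrays were all above (Isg20, Parp9, Parp14 and Stat2; 8.79%) and 0 past the threshold in limma (6 at an unadjusted p under 0.05).

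Ifi47, an IRG, was at 4.27, 4.54 and 4.37 in control lung, 5.04, 4.88 and 4.94 in resolving lung and 4.90, 4.93 and 4.99 in spleen (log2 levels). All 3 control arrays were the lowest, and the injured groups lay on the same level. The log2 difference of resolving from control lung was 0.56 (SE 0.08, 1.48-fold higher, limma adjusted p = 0.0372). This call was fragile: it was lost without any 1 of 8 arrays and kept only without control lung array 2, with adjusted p from 0.0482 to 0.107, and without both lung arrays 1, where macrophage markers were high, the difference was 0.46 (adjusted p = 0.126).

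Iigp1, the IRG that coats parasite vacuoles, had the largest fitted difference of the class with all arrays. Its log2 levels were 6.85, 7.10 and 6.60 in control lung, 8.29, 7.42 and 7.42 in resolving lung and 7.70, 7.33 and 7.67 in spleen. The groups of lung arrays did not overlap, but resolving lung array 1 was far above its group. The log2 difference of 0.86 (SE 0.24) between the lung groups missed the threshold (limma adjusted p = 0.168). Without resolving lung array 1 it was 0.57 (adjusted p = 0.214), below that of Gbp5 (0.62, adjusted p = 0.294).

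Gbp5, a GBP that promotes inflammasome assembly, was at 5.94, 6.32 and 6.54 in control lung, 7.22, 6.99 and 6.77 in resolving lung and 7.01, 6.77 and 7.29 in spleen (log2 levels). Control lung was lowest without overlap. The log2 difference between the lung groups was 0.73 (SE 0.19, limma adjusted p = 0.143).

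Gbp2, a GBP that acts on the membranes of vacuoles, gave 8.04, 7.69 and 7.58 in control lung, 8.34, 8.38 and 8.15 in resolving lung and 8.10, 8.08 and 8.09 in spleen (log2 levels). Resolving lung was the highest group and did not overlap with the others. Its difference from control lung was 0.53 on the log2 scale (limma adjusted p = 0.109). The regulatory IRG Irgm1 (0.48), the IRG Igtp (0.41), and the GBPs Gbp7 (0.38), Gbp3 (0.32) and Gbp4 (0.22) also had positive log2 differences, none past the threshold. Without resolving lung array 1, the differences of Igtp and Irgm1 were 0.21 and 0.34. Irgm2, the annotated neighbour of Igtp and like Irgm1 a regulator of the other IRGs, had a difference of -0.11 (SE 0.17; -0.26 without that array), and its arrays overlapped.

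Resolving lung array 1 was the highest of its group for 8 of 10 GTPases, and array 3 the lowest for 8. The first is the array with the highest macrophage markers, and macrophages respond to interferon-gamma with the same genes. Without that array the median log2 difference of the GTPases between the lung groups was 0.35. Resolving lung arrays 2 and 3, with a macrophage marker mean of 4.60 in both, had GTPase means of 7.58 and 7.43, against at most 7.24 in control lung. In these 2 arrays the macrophage markers Adgre1 (4.41 and 4.64), Cd68 (7.46 and 7.34) and C1qa (5.55 and 5.36) were also above every control lung array (at most 3.85, 7.09 and 5.05). Other markers were not: Plet1 (3.77 and 3.59) and Ear2 (3.43 and 4.21) lay within or below their control lung ranges (3.76 to 7.19 and 4.21 to 6.05). With all arrays, 5 of the 14 markers lay above control lung without overlap and 0 below, and 3 had lower fitted values. With the macrophage marker mean as a covariate, 0 members passed between the lung groups, and over all genes 9 passed as higher and 16 as lower. Beyond that fit, the part of these cells in the GTPase levels was not tested.

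Among type I targets, Irf7, the transcription factor that amplifies interferon-alpha production, showed the clearest lower values in resolving lung. Its log2 levels were 7.41, 7.28 and 7.46 in control lung, 6.52, 7.07 and 6.91 in resolving lung and 7.07, 7.07 and 6.97 in spleen. Control lung was above all other arrays. The log2 difference between the lung groups was -0.55 (SE 0.13, limma adjusted p = 0.119). Oas2, which makes the oligoadenylates that activate RNase L, had a difference of -0.57 (adjusted p = 0.158), while Isg20, an RNA exonuclease, had one of 0.46 (adjusted p = 0.218). Isg15, the ubiquitin-like modifier that is among the standard markers of the response, was at 6.47, 6.39 and 6.65 in control lung and 6.54, 6.55 and 6.16 in resolving lung, and these arrays overlapped (log2 difference -0.087, SE 0.12).

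**Figure D3:**
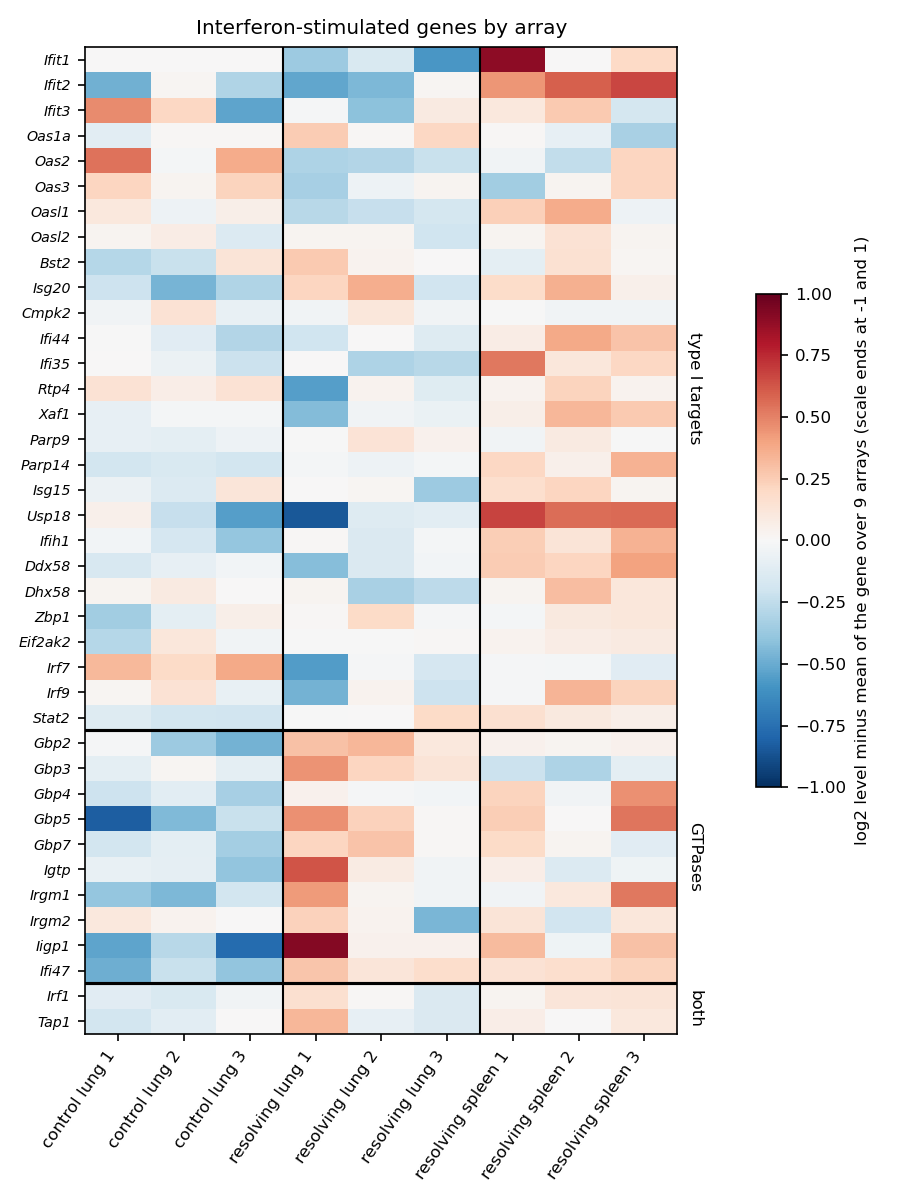
Log2 level of each of the 39 measured genes (rows) in each of the 9 arrays (columns), minus the mean of that gene over the 9 arrays; red is above and blue below the mean, and lines part the groups and classes. The GTPases are mostly blue in control lung, and Usp18, Ifit2 and Ddx58 are red in all 3 spleen arrays.

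The second comparison, resolving lung against resolving spleen, sets Tregs of the injured organ beside those of a lymphoid organ of injured mice. Type I targets were mostly lower in the lung: 22 of 27 had a lower fitted value, the median log2 difference was -0.25 against 0.0091 over all named genes, and in 12 of 27 every lung array was below every spleen array, as in 11.8% of all genes. Ifit2, Usp18 and Ddx58 passed the threshold as lower (2.82% of all genes did), and 12 of 27 were lower at an unadjusted p under 0.05. Among the 8932 genes above the dim level in all 9 arrays, as 26 of the 27 were, the median was -0.037 and 56.0% had lower fitted values. Of these 8932, 1882 were below spleen in every lung array and 1389 above, and 484 passed as lower and 494 as higher. At an unadjusted p under 0.05 in limma, 1734 of the 8932 were lower and 1254 higher, and of all 21023 genes 2221 and 1723. Of the GTPases, Gbp3 alone passed, as higher in the lung (2.64% of all genes did), the median of the 10 was 0.076, and only Gbp2 and Gbp3 lay above spleen in every array (as did 11.3% of all genes).

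Ifit2, an RNA-binding antiviral protein, had log2 levels of 5.43, 5.93 and 5.61 in control lung, 5.40, 5.46 and 5.93 in resolving lung and 6.36, 6.51 and 6.59 in spleen. Every spleen array was above every lung array. The log2 difference of resolving lung from spleen was -0.89 (SE 0.17, 1.85-fold lower, limma adjusted p = 0.0225).

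Usp18, the protease that removes Isg15 from proteins and dampens signalling at Ifnar2, was at 7.25, 6.97 and 6.65 in control lung, 6.35, 7.07 and 7.10 in resolving lung and 7.88, 7.76 and 7.77 in spleen. The spleen arrays lay close together above all 6 lung arrays, which varied more. The log2 difference of resolving lung from spleen was -0.96 (SE 0.22, 1.95-fold lower, adjusted p = 0.0410).

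Ddx58, which encodes the viral RNA sensor RIG-I, gave 7.67, 7.75 and 7.80 in control lung, 7.41, 7.69 and 7.80 in resolving lung and 8.09, 8.05 and 8.23 in spleen. The pattern was the same, with a log2 difference of -0.49 between resolving lung and spleen (SE 0.11, 1.41-fold lower, adjusted p = 0.0358). Its relatives Ifih1 (-0.29) and Dhx58 (-0.34) had lower values in the lung that did not pass, while the nucleic acid sensor Zbp1 (0.0017) and the kinase Eif2ak2 (-0.064), which halts translation on viral RNA, lay near zero.

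Ifit1, which binds viral RNA caps and shares its family with Ifit2, stood at 5.89 in all 3 control lung arrays, at 5.52, 5.73 and 5.31 in resolving lung and at 6.78, 5.89 and 6.09 in spleen. Spleen exceeded resolving lung in every array, but spleen array 2 held the same value as control lung. The log2 difference of resolving lung from spleen was -0.73 (SE 0.21, limma adjusted p = 0.0955). The value 5.89 occurred in 4 arrays, and 6 of 39 members and 27.1% of all named genes had an identical value in 3 or more arrays in the deposited table, which makes the spread of such genes too small. Oasl1 (-0.42), Ifi35 (-0.47), Xaf1 (-0.39), Ifi44 (-0.35) and Irf9 (-0.40), the DNA-binding part of the type I complex, were also lower at an unadjusted p under 0.05 and did not pass. The exception at that level was Oas1a, an oligoadenylate synthetase, with a higher value in the lung (0.29, adjusted p = 0.171). Oas1a too held 1 value, 4.71, in 4 arrays, and its resolving lung and spleen arrays overlapped.

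Gbp3, a GBP next to Gbp7 on its chromosome, was at 6.99, 7.12 and 7.00 in control lung, 7.54, 7.31 and 7.22 in resolving lung and 6.88, 6.79 and 7.00 in spleen. Resolving lung was above both other groups without overlap. The log2 difference from spleen was 0.47 (SE 0.10, 1.39-fold higher, adjusted p = 0.0298). No other GTPase differed at an unadjusted p under 0.05; Ifi47 (0.014), Gbp5 (-0.029) and Irgm1 (-0.061) were within 0.1 of equality, with SEs of 0.08, 0.19 and 0.17.

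The 4 calls were sensitive to the arrays used. Ifit2 was kept only without any 1 control lung array or resolving lung array 3 (adjusted p 0.0127 to 0.0836 over the 9 omissions), and Usp18 only without control lung array 1 or 3 or resolving lung array 1 or 3 (0.0452 to 0.134). Ddx58 was kept only without resolving lung array 1 or 3 (0.0277 to 0.124), and Gbp3 only without control lung array 1 or 2 or resolving lung array 3 (0.0287 to 0.0993). Without both lung arrays 1, the log2 differences were -0.79 for Ifit2 (adjusted p = 0.0513), -0.72 for Usp18 (0.0180), -0.38 for Ddx58 (0.0559) and 0.38 for Gbp3 (0.0654). Same-numbered resolving lung and spleen arrays deviated together, which the main fit, having no block, ignored. With the replicate block in limma, Ifit2 (adjusted p = 0.0245) and Ddx58 (0.0297) were kept and Usp18 (0.0831) and Gbp3 (0.0642) were lost. With the block on these groups alone, Gbp3 was kept (0.0479) and Usp18 was not (0.0588). Without resolving lung array 1 alone, the GTPase median turned from 0.076 to -0.084.

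B cell markers moved with the same contrast: all 9 had lower values in resolving lung than in spleen in every array, and their summed linear level was 304 to 364 in resolving lung, 502 to 539 in control lung and 690 to 1557 in spleen. In spleen arrays 1, 2 and 3 the B cell mean was 5.78, 7.03 and 6.26, and the type I mean was 6.70, 6.73 and 6.70. A link between the 2 was not tested. With the B cell mean as a covariate, the log2 differences were -0.71 for Ifit2, -1.09 for Usp18, -0.54 for Ddx58 and 0.33 for Gbp3, with adjusted p from 0.754 to 0.916, and the type I median was 0.0029. Because the B cell mean separates spleen from lung, the part of these cells and the tissue cannot be told apart in that fit.

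**Figure D4:**
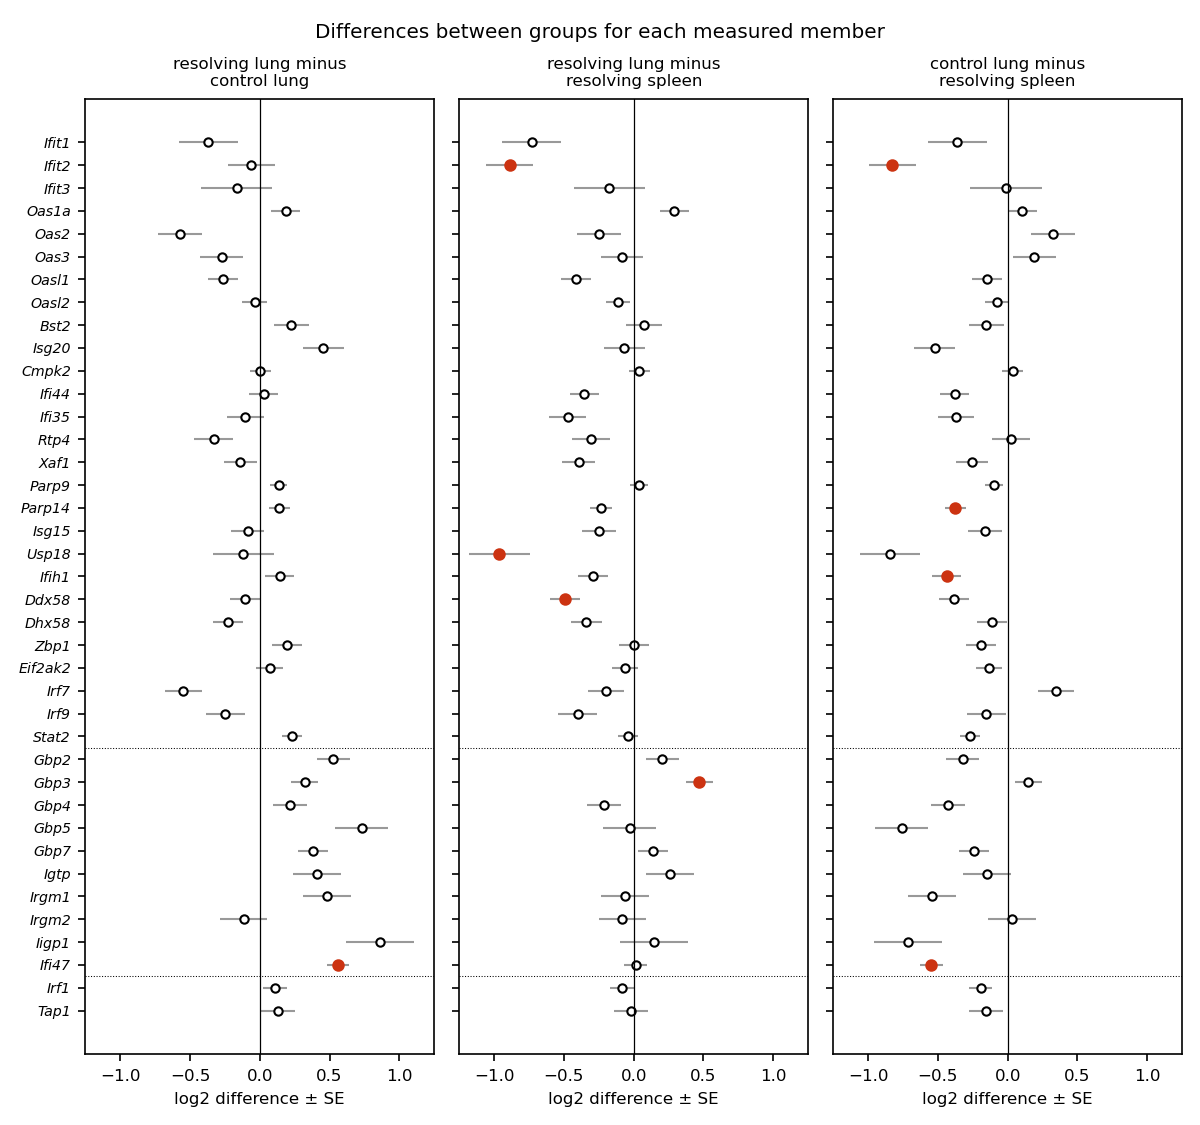
Log2 difference ± SE from the limma fit for each of the 39 measured genes in the 3 comparisons; filled red points passed an adjusted p of 0.05, and dotted lines part type I targets, GTPases and the 2 genes of both classes. In the first panel 9 of 10 GTPases, all but Irgm2, lie right of 0; GTPases lie mostly left of 0 in the right panel, and type I targets lie mostly left of 0 in the middle and right panels.

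The last comparison, control lung against resolving spleen, differs in both tissue and injury. It shares its arrays with the other comparisons, so its values are given side by side with theirs and are no separate evidence. Type I targets were again mostly lower in the lung (21 of 27, median -0.15 against 0.0027 over all named genes), and so were GTPases (8 of 10, median -0.38). Lower calls were Ifit2, Parp14, Ifih1 and Ifi47, against 3.49% of all genes; 0 members passed as higher, against 2.67%. In 11 of 27 type I targets and 6 of 10 GTPases all control lung arrays were below all spleen arrays, as in 13.8% of all genes; Irf7 alone lay above spleen in every array, as did 11.6%. Among the 8932 genes above the dim level in all 9 arrays, which 38 of the 39 members were, the median was -0.063 and 60.0% had lower values. Of these 8932, 2314 had all control lung arrays below all spleen arrays and 1499 above, and 602 passed as lower and 492 as higher.

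Ifit2 was lower in control lung than in spleen by a log2 difference of -0.83 (SE 0.17, 1.77-fold, adjusted p = 0.0262), close to its value in resolving lung. Ifi47 was lower by -0.55 (SE 0.08, 1.46-fold, adjusted p = 0.00757).

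Parp14, an ADP-ribosyltransferase, was at 8.23, 8.26 and 8.23 in control lung, 8.39, 8.35 and 8.39 in resolving lung and 8.62, 8.46 and 8.75 in spleen. The groups were ordered with no overlap, and the log2 difference of control lung from spleen was -0.37 (SE 0.08, 1.30-fold lower, adjusted p = 0.0269).

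Ifih1, which encodes a sensor of long viral RNA, was at 6.79, 6.65 and 6.42 in control lung, 6.83, 6.67 and 6.79 in resolving lung and 7.06, 6.94 and 7.16 in spleen. Spleen was highest in every array, and the lung groups overlapped. The log2 difference of control lung from spleen was -0.44 (SE 0.10, 1.35-fold lower, adjusted p = 0.0476). Gbp5 (-0.76, adjusted p = 0.0567), Usp18 (-0.85, 0.0599) and Stat2 (-0.27, 0.0643) lay just outside the threshold.

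The Ifi47 call against spleen was kept without any single array (limma adjusted p 0.00681 to 0.0343) and without both lung arrays 1 (-0.49, adjusted p = 0.0180). Ifit2 was kept only without control lung array 2 or any 1 resolving lung array (0.0156 to 0.0946), Parp14 only without any 1 resolving lung array or spleen array 2 (0.0181 to 0.0868), and Ifih1 only without control lung array 1 or resolving lung array 1 (0.0414 to 0.152). With the B cell mean as a covariate none of the 4 passed (adjusted p 0.165 to 0.499), with log2 differences of -0.71 for Ifit2, -0.53 for Parp14, -0.60 for Ifih1 and -0.53 for Ifi47. The directions of all 9 calls of the 3 comparisons held in all 22 alternatives.

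The genes of both interferons changed little. Irf1, a transcription factor induced by both interferons, ran from 7.97 to 8.29 over the 9 arrays, and its largest log2 difference was -0.19 between control lung and spleen (SE 0.08, limma adjusted p = 0.266). Tap1, a subunit of the peptide transporter for MHC class I, ran from 9.35 to 9.86, with resolving lung array 1 highest, and its largest difference was -0.15 (SE 0.12, adjusted p = 0.586).

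Interferons, their receptors and the kinases and inhibitors of the pathway were taken from a separate list. Of 18 measured interferon genes, 11 lay at or below the dim level in all 9 arrays. Ifng, the interferon-gamma gene, was at 3.48, 3.99 and 3.55 in control lung, 3.05, 4.20 and 3.93 in resolving lung and 3.24, 3.55 and 3.21 in spleen. These values are near the dim level and the groups overlapped. Ifnl2, an interferon-lambda gene, passed as higher in resolving lung than in spleen (log2 difference 0.49, SE 0.10, adjusted p = 0.0346), at low levels of 4.66 to 4.84 against 4.16 to 4.34; it has a near-identical copy, Ifnl3, and the probes may not tell them apart.

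Among the 5 measured receptor chains, 2 passed as lower in resolving lung than in control lung (0.323% of all genes did). Against spleen, 3 passed as higher in control lung (2.67% of all genes) and 1 in resolving lung (2.64%). Ifnar1, a chain of the type I receptor, was at 10.12, 10.24 and 10.21 in control lung, 9.21, 9.60 and 9.60 in resolving lung and 9.51, 9.49 and 9.43 in spleen. It was higher in control lung than in all other arrays, with a log2 difference of -0.72 for resolving lung against control lung (SE 0.11, 1.65-fold lower, adjusted p = 0.0387) and 0.71 for control lung against spleen (adjusted p = 0.00802). Its partner Ifnar2 did not pass in any comparison (8.64 to 9.05).

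Ifngr2, the signalling chain of the interferon-gamma receptor, had log2 levels of 8.36, 8.15 and 8.09 in control lung, 6.76, 7.32 and 7.30 in resolving lung and 7.45, 7.57 and 7.54 in spleen. Control lung was highest and resolving lung lowest, with no overlap. Resolving lung was lower than control lung by a log2 difference of -1.07 (SE 0.15, 2.10-fold, adjusted p = 0.0346), and control lung was above spleen by 0.68 (adjusted p = 0.0344).

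Ifngr1, the ligand-binding chain, was at 11.35, 11.33 and 11.08 in control lung, 11.08, 11.15 and 11.04 in resolving lung and 10.44, 10.44 and 10.27 in spleen. Both lung groups were above spleen, by 0.87 for control lung (SE 0.09, adjusted p = 0.00154) and 0.70 for resolving lung (SE 0.09, adjusted p = 0.00534), and the lung groups did not pass against each other.

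Jak2, a kinase bound to Ifngr2, fell into 3 separate groups, with 9.93, 9.61 and 9.68 in control lung, 9.20, 9.21 and 8.99 in resolving lung and 8.71, 8.71 and 8.69 in spleen. All 3 differences passed: -0.60 for resolving against control lung (adjusted p = 0.0498), 0.43 for resolving lung against spleen (0.0423) and 1.03 for control lung against spleen (SE 0.10, adjusted p = 0.00107). Jak1 and Tyk2, the other kinases, did not pass in any comparison.

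Of 6 measured inhibitors, Socs1 and Ptpn6 were ordered opposite to Jak2. Against spleen, 3 of the 6 passed as lower in control lung and 2 in resolving lung, as did 3.49% and 2.82% of all genes. Socs1, which blocks Jak kinases, was at 4.39, 4.70 and 4.42 in control lung, 5.25, 4.95 and 4.83 in resolving lung and 6.04, 5.61 and 5.83 in spleen. The 3 groups did not overlap. Spleen exceeded control lung (log2 difference of control lung from spleen -1.32, SE 0.15, 2.50-fold, adjusted p = 0.00209) and resolving lung (-0.82, SE 0.15, adjusted p = 0.0185). Ptpn6, which encodes the phosphatase SHP-1, was ordered alike, with log2 differences from spleen of -0.83 in control lung (adjusted p = 0.00187) and -0.48 in resolving lung (0.0204). Socs3, an inhibitor of Stat3 signalling, passed against spleen in control lung alone (-0.74, adjusted p = 0.0160); the 3 other measured inhibitors did not pass in any comparison.

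Calls of Ifngr1 in both comparisons with spleen, and of Ifnar1, Jak2, Socs1 and Ptpn6 in control lung against spleen, were kept without any single array. Between the lung groups, Ifnar1 and Ifngr2 were kept only without resolving lung array 1 or 3 (adjusted p 0.0339 to 0.112 and 0.0289 to 0.107), and Jak2 was lost without any 1 of the 9 (0.0585 to 0.108). Against spleen, Jak2 in resolving lung was kept only without control lung array 1 or resolving lung array 3 (0.0252 to 0.128), Ifngr2 in control lung only without any 1 resolving lung array (0.00370 to 0.116), and Ifnl2 only without control lung array 1 or 3 (0.0171 to 0.109). In resolving lung against spleen, Socs1 was lost without resolving lung array 2 or spleen array 1 or 3 (up to 0.0672) and Ptpn6 without resolving lung array 2 or any 1 spleen array (up to 0.0709); Socs3 in control lung was lost without control lung array 3 or spleen array 1 or 2 (up to 0.0621). With the replicate block, Jak2 (adjusted p = 0.0544) and Ifnl2 (0.0559) were lost in resolving lung against spleen, and with the block on these groups alone Ptpn6 was lost as well (0.0506).

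With the macrophage mean as a covariate, the differences between the lung groups missed the threshold for Ifnar1 (-0.62, adjusted p = 0.0502), Ifngr2 (-0.95, 0.0591) and Jak2 (-0.66, 0.0665). They also missed it with the B cell covariate (adjusted p 0.230 to 0.259) and with only the 6 arrays compared (0.170 to 0.203). Lung epithelial markers were lower in resolving than in control lung as well, in 12 of 13 fitted values (3 passed). Their part in these differences was not tested. With the B cell covariate, only Socs1 in control lung passed against spleen (-1.66, adjusted p = 0.0423) among all the pathway, inducer and other target genes called here. Under that covariate the log2 difference from spleen was 0.75 for Ifngr1 in resolving lung (adjusted p = 0.455), and in control lung it was 0.90 for Ifngr1 (0.0918), 0.74 for Ifnar1 (0.221), 1.03 for Jak2 (0.0837), -0.71 for Ptpn6 (0.143) and -0.59 for Sting1 (0.110).

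**Figure D5:**
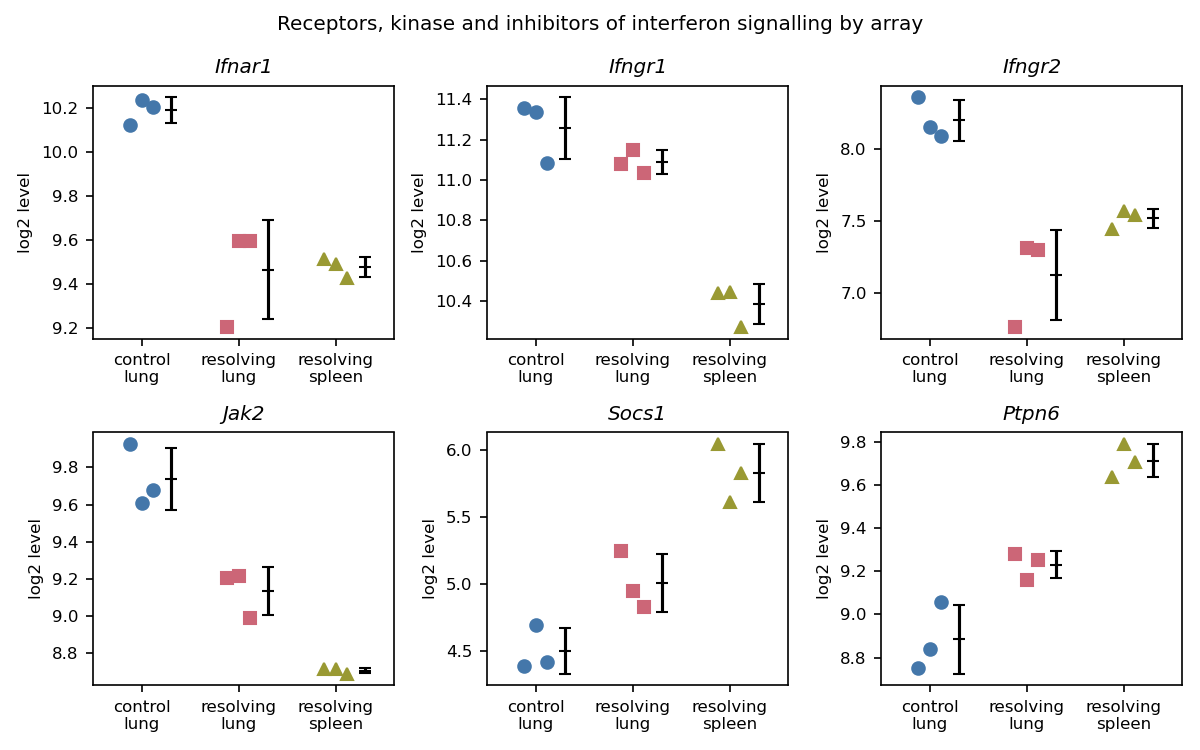
Log2 level (vertical axes, which differ and do not start at 0) of 3 receptor chains, the kinase Jak2 and the inhibitors Socs1 and Ptpn6 in each of the 9 arrays, with mean ± SD per group (n = 3). Ifnar1, Ifngr2 and Jak2 are highest in control lung, Ifngr1 is lower in spleen than in both lung groups, and Socs1 and Ptpn6 are highest in spleen.

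Of 13 measured genes that induce interferons, 0 passed between the lung groups in limma (5 at an unadjusted p under 0.05, as were 2943 of all 21023 genes). Against spleen, Tlr7 and Ikbke, a kinase of the interferon regulatory factors, were lower in resolving lung, and Irf3, the factor that starts interferon-beta transcription, Mavs, the adaptor of RIG-I, Sting1 and Tlr7 were lower in control lung. Over all genes, 2.82% passed as lower than in spleen in resolving lung and 3.49% in control lung. The log2 differences were -0.52 for Ikbke (adjusted p = 0.0295), -0.53 for Irf3 and -0.58 for Mavs (both 0.0134). Sting1, the adaptor for cytosolic DNA sensing, was at 9.40, 9.37 and 9.37 in control lung, 9.81, 10.04 and 9.86 in resolving lung and 10.09, 10.34 and 10.21 in spleen. The groups did not overlap, and the log2 difference of control lung from spleen was -0.83 (SE 0.09, adjusted p = 0.00153), which was kept without any single array.

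Tlr7, the endosomal receptor for single-stranded RNA, was at 6.48, 6.41 and 6.19 in control lung, 5.92, 6.38 and 5.96 in resolving lung and 7.20, 7.19 and 7.02 in spleen. Spleen was above all lung arrays, by log2 differences of -1.05 for resolving lung (adjusted p = 0.00532) and -0.77 for control lung (0.0137). B cells express Tlr7, and their markers were highest in the same arrays. With the B cell covariate the differences were -0.92 (adjusted p = 0.575) and -0.69 (0.374), and these cells and the tissue cannot be told apart in that fit. Tlr7 in resolving lung was kept without any single array, and in control lung it was lost without spleen array 1 or 2 (adjusted p up to 0.0556). Ikbke was kept only without control lung array 1 or resolving lung array 3 (0.00647 to 0.105), Irf3 was lost without spleen array 1 or 3 (up to 0.0547), and Mavs was lost without spleen array 2 or 3 (up to 0.0559).

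Among 32 other measured type I targets, 0 passed between the lung groups (5 at an unadjusted p under 0.05), 3 were lower in resolving lung than in spleen and 0 higher, and 2 were higher and 5 lower in control lung than in spleen. Over all genes, 2.82% were lower and 2.64% higher in the former comparison, and 2.67% higher and 3.49% lower in the latter. Between the lung groups, 2943 of all 21023 genes had an unadjusted p under 0.05 in limma, and 2322 of the 8932 above the dim level in all 9 arrays. Slfn5, a Schlafen protein, had the smallest p against spleen in resolving lung: it was at 6.03, 6.05 and 5.89 in control lung, 5.84, 6.06 and 5.94 in resolving lung and 6.69, 6.59 and 6.64 in spleen. The lung groups lay together below spleen, with log2 differences of -0.69 for resolving lung (SE 0.08, adjusted p = 0.00339) and -0.65 for control lung (0.00285), both kept without any single array and both lost with the B cell covariate (-0.78, adjusted p = 0.337, and -0.71, 0.110). Oas1b, an oligoadenylate synthetase that is truncated in C57BL/6 mice, was also lower in resolving lung (-0.88, 0.0223) and control lung (-0.93, 0.0162). The helicase Ddx60 was lower in resolving lung (-0.73, adjusted p = 0.0445); Parp11, Tor3a and Slfn2 were lower in control lung (-0.64, -0.64 and -0.28). The ubiquitin ligase Trim25, which activates RIG-I, and Ifi27l2a were the ones higher in control lung than in spleen (0.85 and 0.53, adjusted p = 0.0231 and 0.0493). Oas1b was kept in resolving lung only without any 1 control lung array or spleen array 1 (adjusted p 0.00849 to 0.0835) and in control lung it was lost without spleen array 2 or 3 (up to 0.0636). Ddx60 was kept only without control lung array 2 or resolving lung array 2 (0.0301 to 0.127), Parp11 only without resolving lung array 1 or 2 (0.0279 to 0.159) and Slfn2 only without resolving lung array 1 (0.0469 to 0.137). Tor3a was lost without spleen array 1 or 3 (up to 0.0623), Trim25 was kept only without any 1 resolving lung array (0.000781 to 0.0820), and Ifi27l2a only without control lung array 2 or resolving lung array 1 or 3 (0.0318 to 0.154).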

How the data were processed

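Each sample's RNA was measured on 1 Affymetrix Mouse Gene 2.1 ST array; per the labels' protocols, the input was 225 ng. The deposited log2 values of 9 arrays and 31351 rows (1.07 to 12.85) were used unchanged. Affymetrix Expression Console, RMA and Partek are named in the submitters' processing notes; versions and order are not stated. The range of the values showed the log2 scale. Because RMA equalises the arrays' distributions, shifts common to most genes are lost, and changes of dim genes are compressed. For arrays, their number limits the precision.

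Row accessions were given symbols from an NCBI RefSeq gene list (GRCm38.p6): 21057 rows matched 1 symbol and 10294 (32.8%) stayed unnamed. Where a gene had more rows (34 genes), the brightest on average was taken, which left 21023 genes, with no filter on low signal.

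All 9 arrays were fitted in 1 model with limma 3.58.1 (lmFit, eBayes; R 4.3.3, 6 residual and 2.29 prior degrees of freedom), a step checked on simulated data. P-values were two-sided and adjusted by Benjamini-Hochberg over all named genes, with a threshold of 0.05. An exact permutation test of 3 against 3 cannot go below 0.1 and was not used. Groups came from the sample titles.

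The members and gene lists were chosen with earlier results of these data known. Members past the threshold, and the 3 of each class with the largest range of group means, are given in full; any other measured member may be named. Listed pathway genes were named if past the threshold or with the smallest p of their list; receptors, kinases and Ifng always. A listed pathway gene is not reported here. The labels do not say what a replicate number marks. Correlations of same-numbered arrays' deviations from the group means were 0.13 to 0.23 for resolving lung with spleen (3 pairs, and -0.18 to 0.019 otherwise). All 3 were over 0.1, so these numbers were treated as pairs, in the block alternatives only. The main fit held no block, so its p-values in that comparison ignore any pairing. Deviations sum to 0 within a group, so the values of the other pairs are no separate contrast. Same-numbered arrays gave -0.052 to 0.13 for control with resolving lung and -0.092 to 0.18 for control lung with spleen, not all over 0.1. A pair with unlike numbers, control lung array 2 with resolving lung array 3, reached 0.20. Alternatives were other normalizations, filters, row rules, weights, a block, marker covariates and omitted arrays.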

Additional observations from a re-analysis of the deposited data

How the results depend on the processing

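Over 22 alternatives per result, 0 of the named differences that passed reversed. The count of members past the threshold was 1 for resolving against control lung, 4 for resolving lung against spleen and 4 for control lung against spleen. The first fell to 0 with a trended robust variance, array weights, centring on the median of genes above the dim level, the macrophage or the B cell covariate, neither lung group's array 1, or only the 6 arrays compared. The second became 0 with the B cell covariate, 1 with neither array 1 and 1 with only the 6 arrays. The third became 8 with array weights, 2 after another quantile normalization, 8 with the macrophage covariate, 0 with the B cell covariate and 8 with only the 6 arrays (1 higher, 7 lower). The replicate block over all 9 arrays gave 0, 3 and 2 members, and over all genes 7 higher and 8 lower between the lung groups against 28 and 68 without it. Only the numbers of resolving lung and spleen met the rule for pairs, and besides the calls given above the block changed no other call named in that comparison. The block on these groups alone gave 0, 6 and 5 members. That block, the B cell covariate and the omission of both lung arrays 1 were chosen after seeing the data. The cause of these shifts was not tested.

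The type I median of resolving against control lung (-0.087) became -0.13 after quantile normalization, -0.0024 with the macrophage covariate, 0.0054 with the B cell covariate and -0.033 with neither array 1. With the B cell covariate the type I median was 0.0029 for resolving lung and -0.015 for control lung against spleen. The GTPase median of resolving lung against spleen (0.076) became -0.084 with neither array 1.

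Leaving out each array in turn, the counts ran from 0 to 1, 0 to 4 and 1 to 9 in the 3 comparisons. The type I medians ran from -0.087 to 0.0069, from -0.28 to -0.23 and from -0.24 to -0.12, and the GTPase medians from 0.35 to 0.55, from -0.084 to 0.17 and from -0.45 to -0.30. The lone turns of sign, to 0.0069 and -0.084, came without resolving lung array 1. With 3 arrays per group, adjusted p-values near 0.05 move across the threshold with most omissions; only the Ifi47 difference of control lung from spleen, among the 9 member calls, was past it without each array.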

Other observations

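Among 19 other measured targets of interferon-gamma, 0 passed between the lung groups in limma (5 at an unadjusted p under 0.05), 0 passed in resolving lung against spleen (3 at an unadjusted p under 0.05) and 2 were lower in control lung than in spleen. The latter were Psmb10, a catalytic subunit of the immunoproteasome (8.23, 8.03 and 8.26 in control lung, 8.84, 8.50 and 8.37 in resolving lung, 8.70, 8.67 and 8.69 in spleen; log2 difference -0.52, adjusted p = 0.0425), and Gm4951, an IRG-like gene (-0.90, adjusted p = 0.0481). Control lung was lowest for Psmb10 with no overlap. Over all genes, 3.49% passed as lower in control lung than in spleen. At an unadjusted p under 0.05 in limma were 2943 of 21023 between the lung groups and 3944 in resolving lung against spleen. Of the 19 targets, 14 had higher fitted values in resolving than in control lung, with a median log2 difference of 0.11. Over all named genes 52.5% were higher, with a median of 0.0086. Psmb10 was kept only without resolving lung array 1 or 3 (adjusted p 0.00856 to 0.127) and Gm4951 only without control lung array 2 or spleen array 2 (0.0313 to 0.151). The MHC class I genes H2-K1 (11.25 to 11.32) and B2m (12.28 to 12.38) were level in all 9 arrays.

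Cxcl9, a chemokine that interferon-gamma induces in macrophages, was at 6.16 in resolving lung array 1 and at 2.01 to 3.17 in the other 8 arrays. Irf8, a transcription factor of macrophages and B cells, was at 7.42 in that array, at 5.83 and 5.54 in the other resolving lung arrays, at 4.95 to 5.14 in control lung and at 5.55 to 6.14 in spleen. Macrophage markers were highest in the same array, and their part in both genes was not tested. Cxcl10, a chemokine of the same receptor, was instead at 6.48 to 7.10 in control lung, 6.14 to 7.17 in resolving lung and 5.24 to 5.97 in spleen; every lung array was above every spleen array, and neither difference passed (adjusted p = 0.0917 and 0.0668).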
